A study of Mus musculus with 26 samples.

Results

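The Shh locus on mouse chromosome 5 was described here through 5 protein-coding genes, Shh, Rnf32, Lmbr1, Nom1 and Mnx1, of the 21521 located protein-coding genes of the annotation. The genes were taken by name, and every domain boundary and domain between and around them was read from a list of boundaries in embryonic stem cells (ESCs). Micro-C, which maps contacts between stretches of chromatin cut with micrococcal nuclease, was applied to 26 libraries in 5 groups, all from 1 mouse line, RAD21-dTAG, derived from Bruce-4 cells with the genotype C57BL/6J, in which the cohesin subunit RAD21 carries a degradable tag. Of the ESC libraries, from cells grown in serum/2i/LIF medium, 6 had the vehicle DMSO at 0.05% v/v, 6 had dTAG at 500 nM, which degrades RAD21, and 6 had A485 at 20 µM, which inhibits the acetyltransferases p300 and CBP. Epiblast-like cells gave 4 libraries with DMSO and 4 with dTAG at the same doses. The growth protocol of 6 libraries labelled as ESC, all with dTAG or A485, names epiblast-like cells, so the medium is less certain for them. All groups are labelled as G1 cells, and all of them, the vehicle groups included, carry the tagged RAD21. The list used here came from the 6 DMSO-treated ESC libraries pooled. It gives each boundary as an interval of 25 kb without a score, so no value below has a replicate error and no comparison between treatments or cell types was analysed here. The number of contacts behind a boundary is unknown, and whether Shh or its neighbours were transcribed was not measured in these data.

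Shh encodes Sonic hedgehog, a secreted signal that patterns the neural tube, the limb bud and other tissues. In the limb bud its transcription depends on an enhancer that lies far away, in an intron of Lmbr1, and changes in that enhancer cause extra digits in several mammals. A domain, or TAD, is a stretch of chromosome whose parts contact each other more than they contact the sequence beyond its boundaries, and cohesin that is halted at sites bound by CTCF forms many of these boundaries. A gene and an enhancer in 1 domain can therefore meet over long genomic distances.

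In DMSO-treated ESCs, Shh lay at one edge of a domain and Lmbr1 lay across the opposite edge. The domain ran for 875 kb, from 28450001 to 29325000 on chromosome 5 (mm10). Shh (gene ID 20423, 28456840 to 28467101) had its nearer end 6.84 kb from the boundary that opens it. Lmbr1 (gene ID 56873, 29229802 to 29378421) spanned the boundary that closes the domain, the interval from 29325001 to 29350000. Rnf32 (gene ID 56874, 29192745 to 29227635), a RING finger gene 2.17 kb from Lmbr1, lay wholly within the domain. Nom1 (gene ID 433864, 29434659 to 29452169), which encodes a nucleolar protein, and Mnx1 (gene ID 15285, 29473823 to 29478470), which encodes a homeodomain factor of motor neurons and pancreas, lay together in the next domain. That domain measured 725 kb, from 29350001 to 30075000.

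**Figure D1:**
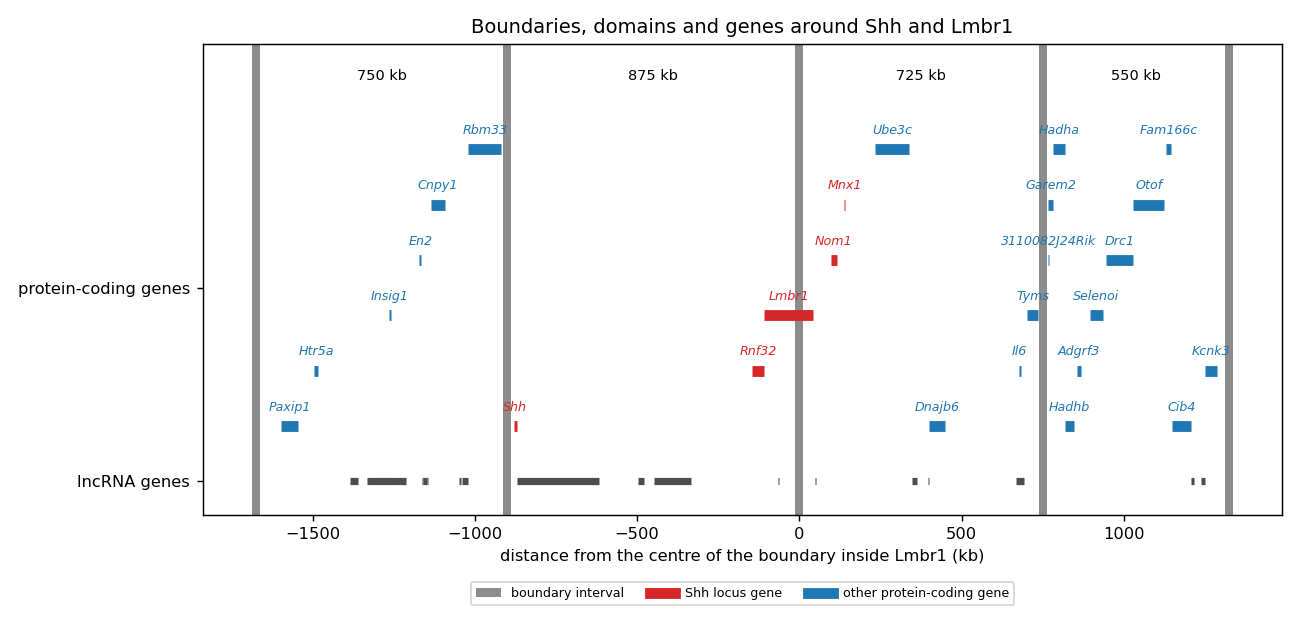
Map of the region, with distance in kb from the centre of the boundary inside Lmbr1 on the horizontal axis, boundary intervals of 25 kb in grey, protein-coding genes stacked for legibility only, and long non-coding RNA (lncRNA) genes in the bottom row. Genes are drawn when their midpoint lies in one of the 4 domains. Shh stands at the left edge of the 875 kb domain, and Lmbr1 crosses the boundary at its right edge.

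The boundary inside Lmbr1 divided the gene unequally. On the Shh side lay 95.2 kb of it, which is 64.1% of its length, the boundary interval took up 16.8%, and 28.4 kb, or 19.1%, lay on the Mnx1 side. Lmbr1 is transcribed towards Shh, so its start site at 29378390 fell in the domain of Nom1 and Mnx1 while most of its body fell in the domain of Shh. The limb enhancer lies within Lmbr1, and its position is given neither in the boundary list nor in the annotation used, so on which side of the boundary it lies was not determined here. A boundary wholly inside a protein-coding gene was found for 752 of 21521 genes (3.49%). Among the 388 genes whose length lay within 10% of that of Lmbr1 the share was 11.1%, so Lmbr1 was 1 of 43 such genes. Seen from the boundaries, 22.1% of the 3515 lay wholly inside a protein-coding gene.

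The promoters of Rnf32 and Lmbr1 are shown because these neighbouring genes start on opposite sides of the boundary, and those of Nom1 and Mnx1 because they share the side of the Lmbr1 promoter. Of the 5 genes, 4 had an entry in the RefSeq promoter sequences (GRCm38.p6). Each line gives the 250 bases before the start site, 5′ to 3′ on the strand of the gene, and capitals mark matches to 3 motifs described after the sequences. The Rnf32 window is chr5:29195743-29195992 on the plus strand and the Lmbr1 window is chr5:29378391-29378640 on the minus strand. The Rnf32 window lies inside the annotated gene, which begins at 29192745, because the first listed start site, 29195993, was used. The Nom1 window is chr5:29434417-29434666 on the plus strand and the Mnx1 window is chr5:29478471-29478720 on the minus strand.
Rnf32: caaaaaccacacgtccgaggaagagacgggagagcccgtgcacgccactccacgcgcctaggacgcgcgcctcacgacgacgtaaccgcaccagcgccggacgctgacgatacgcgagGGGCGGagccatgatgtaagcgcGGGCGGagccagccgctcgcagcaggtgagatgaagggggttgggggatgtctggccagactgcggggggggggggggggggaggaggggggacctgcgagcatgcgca
Lmbr1: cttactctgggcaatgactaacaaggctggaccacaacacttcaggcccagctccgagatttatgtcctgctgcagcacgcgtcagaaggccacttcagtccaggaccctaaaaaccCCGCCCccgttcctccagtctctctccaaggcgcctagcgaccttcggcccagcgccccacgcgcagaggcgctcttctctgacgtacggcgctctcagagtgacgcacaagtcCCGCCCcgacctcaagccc
Nom1: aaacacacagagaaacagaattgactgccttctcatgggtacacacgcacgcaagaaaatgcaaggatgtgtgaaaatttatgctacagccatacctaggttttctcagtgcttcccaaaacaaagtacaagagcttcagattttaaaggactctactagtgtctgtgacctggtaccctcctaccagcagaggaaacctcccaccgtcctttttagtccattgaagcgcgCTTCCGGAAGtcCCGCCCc
Mnx1: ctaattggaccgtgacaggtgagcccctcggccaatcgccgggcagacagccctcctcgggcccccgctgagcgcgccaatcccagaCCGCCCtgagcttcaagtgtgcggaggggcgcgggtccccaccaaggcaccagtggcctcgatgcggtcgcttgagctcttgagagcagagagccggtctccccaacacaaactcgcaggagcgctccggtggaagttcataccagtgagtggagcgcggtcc
None of the 4 windows held AGGNGGC, a stretch of the motif of CTCF, on either strand, whereas 8214 of the 32851 promoter windows of this length did. The GC box GGGCGG, bound by Sp and Klf factors, occurred in all 4, against 32.7% of all windows. It stood in 2 places on the gene's own strand in Rnf32, in 2 places on the opposite strand in Lmbr1, and once on the opposite strand in Nom1 and in Mnx1. Nom1 also held CCGGAAG, the core of the ETS factor motif, which 6.91% of windows hold. Its 2 matches, 1 on each strand, overlap each other. The windows of Rnf32 and Mnx1 were rich in CpG dinucleotides, with 29 and 21, and the Lmbr1 window held 18, whereas Nom1, with 7, was close to the median of 6. These matches describe letters in a window, and none of these windows overlaps a boundary interval.

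Shh and Lmbr1 shared a domain by their midpoints although 763 kb separated their nearer ends. Most of that distance, 726 kb, is a stretch without protein-coding genes between Shh and Rnf32, which filled 82.9% of the domain. Of 19388 gaps between neighbouring protein-coding genes, 409 were at least this long (2.11%), 23 of them on chromosome 5. No boundary lay in the stretch. The same held for 58 of the 117 gaps whose length was within 10% of it (49.6%), so an undivided gap of this size was about as frequent as a divided one. The domain held 3 protein-coding genes by midpoint (Shh, Rnf32 and Lmbr1), 5 lncRNA genes and 2 pseudogenes. The longest lncRNA gene, 9530036O11Rik (28466984 to 28719209), overlaps one end of Shh and is 252 kb long, most of it in the stretch. Gm35688 extends over another 114 kb of it, and Gm42243 and Gm35881 also lie there, while Gm42244 lies within Lmbr1.

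The domain of Shh was longer and poorer in genes than most, but not at the extreme. At 875 kb it compared with a median of 500 kb over 3495 domains and of 600 kb over the 191 domains of chromosome 5. At least as long were 806 domains (23.1%), 53 of them on chromosome 5. Its 0.343 protein-coding genes per 100 kb stood below the median of 0.667, and 31.3% of domains were as sparse or sparser. The domain of Nom1 and Mnx1, at 725 kb, held 6 protein-coding genes, or 0.828 per 100 kb. The domain on the opposite side of Shh measured 750 kb, from 27675001 to 28425000, and also held 6, among them En2, which encodes a homeodomain factor of the midbrain and hindbrain.

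**Figure D2:**
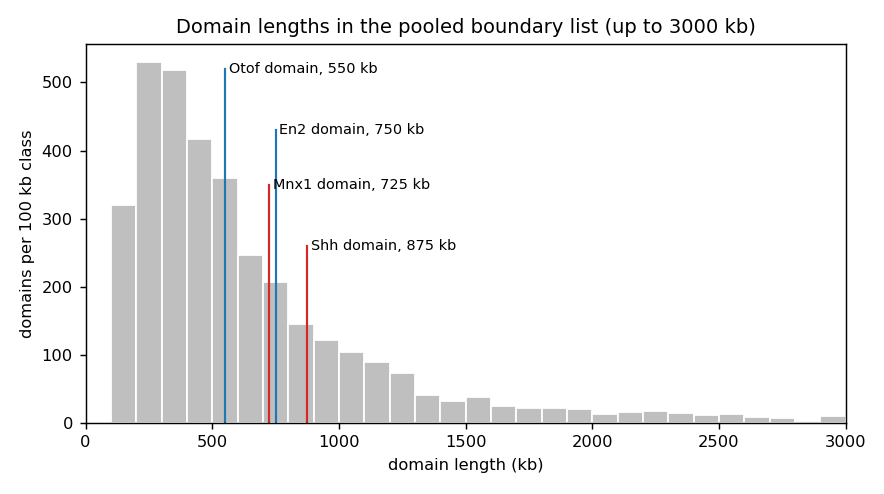
Lengths of domains in classes of 100 kb (horizontal axis, kb) with the number of domains in each class (vertical axis), up to 3000 kb. Lines mark the 4 neighbouring domains of the region, named by a gene in each. The Shh domain, at 875 kb, lies to the right of the median of 500 kb but within the bulk of the distribution.

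Shh was the only one of the 5 genes with an end inside a boundary or within 10 kb of one. The boundary next to it, from 28425001 to 28450000, lay in the 37.6 kb between Shh and Rbm33, which encodes an RNA-binding protein and ended 5.76 kb before the interval. Shh and Rbm33, 37.6 kb apart, were thus placed in different domains, whereas Shh and Lmbr1, 763 kb apart, shared one by midpoint. No gene end lay inside this interval. A boundary in a gap between genes, with a protein-coding gene end within 10 kb on both sides, was found in 22 of 3515 cases (0.626%), a class defined after the values of this boundary had been seen. The class is not particular to Shh in this region. It also takes in the boundary from 30075001 to 30100000, with Tyms 1.36 kb before it and 3110082J24Rik 3.58 kb after it. The boundary inside Lmbr1 had no protein-coding gene end within 10 kb, as did 35.7% of all boundaries. Lmbr1 was next, with its start 28.4 kb from the interval. Nom1, at 84.7 kb, and Rnf32, at 97.4 kb, lay near the median distance of 98.9 kb for all protein-coding genes, and Mnx1 was the farthest, at 124 kb. As a share, 1 of 5 compared with 18.3% of all protein-coding genes (3935 of 21521, 95% Wilson interval 17.8 to 18.8, which covers counting error only), which is close to the background.

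**Figure D3:**
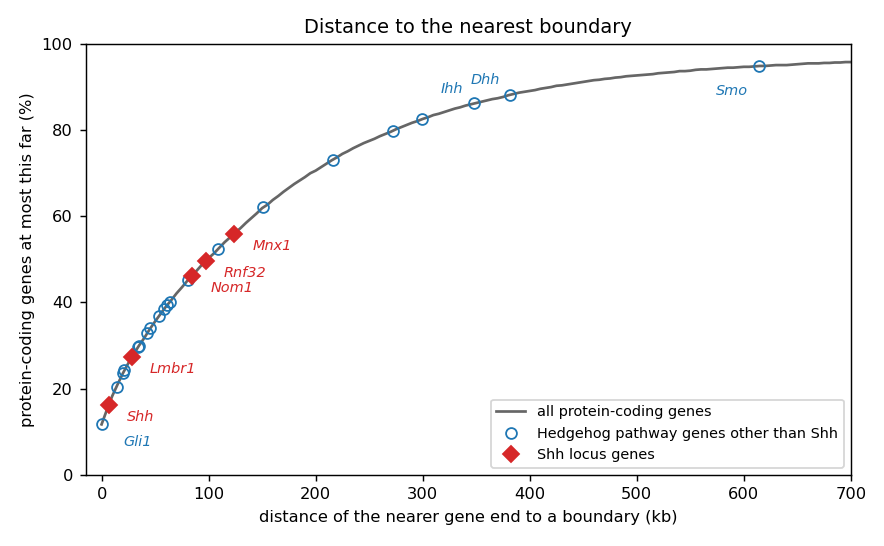
Distance of the nearer gene end to a boundary in kb (horizontal axis) and the share of all 21521 protein-coding genes at most that far (vertical axis, %). The grey line is all genes, red diamonds are the 5 genes of the Shh locus and open circles the other genes of the Hedgehog pathway list, which lie on the line by construction. Shh is at 6.84 kb and Mnx1 at 124 kb, and only Gli1 of the Hedgehog list lies nearer than Shh.

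Within their domains, Shh and Lmbr1 lay at opposite extremes. The midpoint of Shh stood at 1.37% of the length of the domain and that of Lmbr1 at 97.6%, so the 2 genes bracketed nearly all of it. Both therefore lay in the outer 5% at either end, as did 13.6% of the 19750 protein-coding genes with a midpoint in a domain. This cut was not among the comparisons planned in advance. Rnf32 stood at 86.9%, and Nom1 and Mnx1 at 12.9% and 17.4% of theirs. The boundary inside Lmbr1 was the nearest to Lmbr1 (28.4 kb), Nom1 (84.7 kb), Rnf32 (97.4 kb) and Mnx1 (124 kb), genes taken by name. The median over all protein-coding genes was 98.9 kb, so of these only Lmbr1 lay well below it. Shh stood at the far side of the stretch without protein-coding genes.

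Of the 10 pairs that the 5 genes form, 4 shared a domain by midpoint, namely Shh with Rnf32, Shh with Lmbr1, Rnf32 with Lmbr1, and Nom1 with Mnx1. The midpoints of Shh and Lmbr1 lay 842 kb apart. Over all 55936 pairs of protein-coding genes at a separation within 10% of that, 14.2% shared a domain. At the 748 kb that separate Shh and Rnf32 the share was 17.3%. Shh and Mnx1, 1014 kb apart by midpoint, were in different domains, and 9.59% of pairs at that separation share one. In contrast, Rnf32 and Nom1, only 233 kb apart, were separated by the boundary inside Lmbr1, although 56.9% of pairs at such a separation shared a domain. The placement of Lmbr1 rests on its midpoint. By start site, also 4 pairs shared a domain, but only 2 of them were the same, Shh with Rnf32 and Nom1 with Mnx1, because Lmbr1 moved to the domain of Nom1 and Mnx1. With the whole gene body required, these 2 pairs remained.

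**Figure D4:**
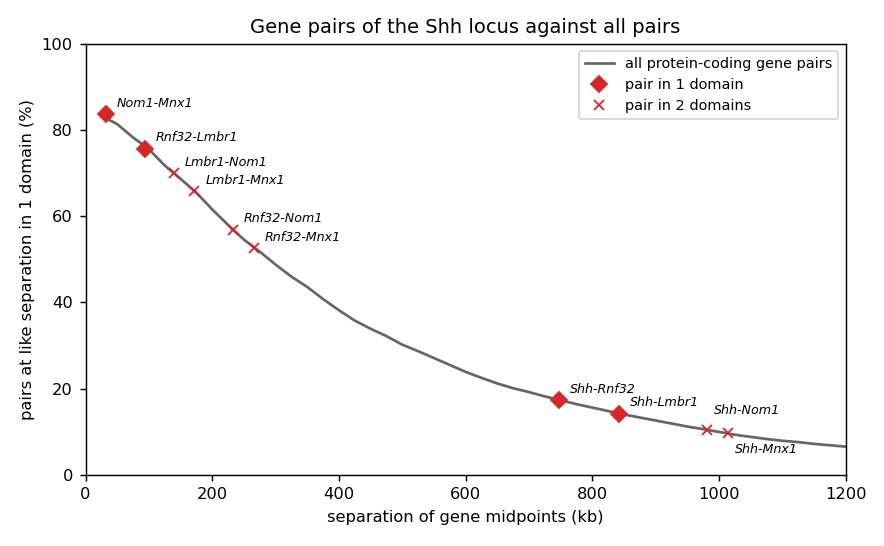
Share of protein-coding gene pairs in 1 domain (vertical axis, %) against the separation of their midpoints in kb (horizontal axis), over pairs within 10% of each separation. Red marks are the 10 pairs of the Shh locus at their own separation, diamonds for pairs in 1 domain and crosses for pairs in 2 domains, and they lie on the line by construction. Shh with Lmbr1, at 842 kb, shared a domain where 14.2% of pairs did, and Lmbr1 with Nom1, at 139 kb, did not where 70.1% did.

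Other genes with an enhancer inside a neighbouring gene were set beside Shh and Lmbr1. The list holds 8 such pairs of a target and its host from textbook knowledge, and the targets are developmental genes apart from the alpha globin gene Hba-a1. By midpoint, 7 of 8 pairs shared a domain, and by start site or with the whole gene body required 5 of 8 did, without Shh and Lmbr1 or Grem1 and Fmn1. Their midpoints lay 34.2 kb apart for Hba-a1 and Nprl3, 97.8 kb for Ihh and Nhej1, 117 kb for the eye regulator Pax6 and Elp4, 120 kb for Fgf8 and Fbxw4, 231 kb for Grem1 and Fmn1 and 309 kb for Irx3 and Fto. Shh and Lmbr1, at 842 kb, were the most widely spaced pair of the 7. For the 6 closer pairs, between 48% (Irx3 and Fto) and 83.9% (Hba-a1 and Nprl3) of all protein-coding pairs at a like separation also shared a domain, so their placement was common at these distances. For Shh and Lmbr1 that share was 14.2%. Dlx5 and Dync1i1, 1003 kb apart, were the single pair placed in different domains, and 9.85% of pairs at that separation share one.

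A whole boundary lay inside the host in 3 of the 8 pairs, Lmbr1, Fmn1 and Dync1i1, against 3.49% of all protein-coding genes. Long genes hold boundaries more often. Among genes within 10% of the host's length, 11.1% did so for Lmbr1, 23.5% for Fmn1 and 27.0% for Dync1i1. Fmn1, which hosts enhancers of the BMP antagonist Grem1, was crossed by the boundary from 113475001 to 113500000 on chromosome 2. Dync1i1, which hosts enhancers of the skeletal regulator Dlx5, was crossed by the boundary from 5825001 to 5850000 on chromosome 6. Fto, at 355 kb longer than either Lmbr1 or Dync1i1, was not divided, and neither were Elp4, Fbxw4, Nprl3 and Nhej1. For these hosts the share at like length was 30.1% for Fto, 15.7% for Elp4, 12.7% for Nhej1, 5.51% for Fbxw4 and 3.29% for Nprl3. Among the targets only Shh and Fgf8 lay within 10 kb of a boundary, at 6.84 and 7.06 kb, which makes 2 of 8, and none of the 8 hosts had an end that near. Over all protein-coding genes the share is 18.3%, so with 8 genes each these counts set neither group apart. Grem1, whose pair resembles that of Shh in having a divided host, lay 66.4 kb from a boundary in a shorter domain of 325 kb.

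**Figure D5:**
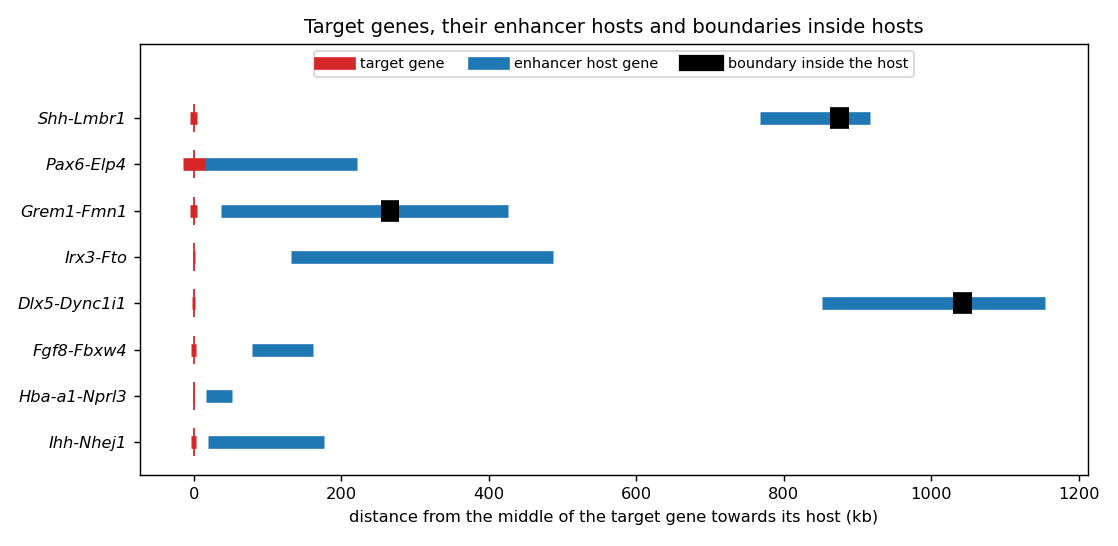
Target genes (red, centred at 0) and the genes that host their enhancers (blue), with distance in kb from the middle of the target towards the host on the horizontal axis and 1 pair per row. Black marks are boundary intervals of 25 kb that lie wholly inside a host, and other boundaries are not drawn. Lmbr1, Fmn1 and Dync1i1 are divided, and the Shh and Dlx5 pairs span the longest distances.

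Genes of the Hedgehog pathway lay at widely different distances from a boundary, from an end inside one to 614 kb. The pathway runs from ligands through the receptor Ptch1, which restrains Smo, to the Gli transcription factors. Of 22 genes, 2 had an end inside a boundary or within 10 kb, Shh and Gli1, a share of 9.09% against 18.3% of all protein-coding genes. With a window of 50 kb it was 9 of 22, against 35.6% of all protein-coding genes. With no window it was 1 of 22, against 11.7%, and with a window of 25 kb 5 of 22, against 25.9%. The share was below the background at each window except that of 50 kb. The windows are nested, and with 22 genes these counts do not set the list apart. The median distance was 59.8 kb, against 98.9 kb for all protein-coding genes. The other ligands, Ihh and Dhh, lay 348 and 382 kb from a boundary, in gene-rich domains with 32 and 48 protein-coding genes. They differ in this from Shh, whose domain held 3. Ihh shared its 850 kb domain with Stk36, a kinase of the same pathway. Hhat, the acyltransferase that modifies the ligand, lay 21.2 kb from a boundary and was the only gene of the list with a whole boundary inside it. Disp1 and Scube2, which release the ligand, lay 53.5 and 299 kb away.

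Receptors and transducers all had their midpoint in a domain, as did 19750 of the 21521 protein-coding genes. Distances of the 7 receptor, co-receptor and antagonist genes ran from 35.0 kb for Boc to 614 kb for Smo, the largest in the list, and Ptch1 lay at 58.3 kb. Gas1, Boc and Hhip each were the single protein-coding gene of their domain, of 600, 275 and 725 kb. Of the 6 genes of transduction, Evc was the nearest to a boundary, at 14.0 kb, and shared a 475 kb domain with Evc2. The 3 Gli genes lay at up to 45.6 kb from a boundary, and 35.6% of all protein-coding genes lie within 50 kb of one. Within 10 kb lay 1 of the 3, against 18.3% of all protein-coding genes. With 3 genes these counts do not set the group apart. Gli1, on chromosome 10 from 127329882 to 127341579, had an end inside a boundary. Gli3, at 20.0 kb, was the single protein-coding gene of a 1100 kb domain, longer than that of Shh, and Gli2 lay at 45.6 kb.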

How the data were processed

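The authors made the Micro-C libraries. Per the submitters' processing notes, BWA 0.7.17 and Juicer 1.22.01 were used, with the build mm10. The deposited table gives chromosome, start and end of boundary intervals and no measured value, and the labels list it with pooled maps of the 6 DMSO-treated ESC libraries. How boundaries were called, with which tool, window or threshold, is not stated in the labels or the file. The growth protocol of 6 libraries labelled as ESC names epiblast-like cells, and none of them contributed to the list. Depth per library is unknown.

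Domains are the stretches that separate consecutive boundary intervals, with positions counted from 1, and a gene belongs to the domain of its midpoint. Genes came from RefSeq GRCm38.p6, the build also called mm10. Genes placed after the sorted run of a chromosome lie on scaffolds and were left out, which kept 49209 genes. Start sites and strands came from the RefSeq promoter sequences, which hold 17274 of the 21521 protein-coding genes; the first listed was used. Shh and other genes without one kept their midpoint.

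No test was made, since 1 pooled list has no spread: counts and ranks are descriptions, set beside all genes, boundaries or domains. Members and lists were chosen with earlier results of these data known. Named genes were the 5 genes, the protein-coding genes of their domains and of the domains next to these, genes with an end inside the boundaries around them, Hedgehog genes within 10 kb of a boundary and the 3 farthest, and the host pairs. Other Hedgehog genes, the lncRNA genes and Dpp6 were named after their values were seen. The position functions were tested on simulated boundaries. Alternatives were other windows, gene midpoints or start sites, interval middles and merged boundaries. The software was numpy 2.4.6, scipy 1.17.1, pandas 2.3.3 and matplotlib 3.10.9 under Python 3.11.15.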

Additional observations from a re-analysis of the deposited data

How the results depend on the processing

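Of 48 alternatives, 34 left a count within 1.5 times its value, or a distance or length within the 25 kb of a boundary interval. The count of Shh locus genes near a boundary, 1 of 5, was 0 with no window or with gene midpoints and 2 with a window of 50 kb. For the Hedgehog list, 2 near genes became 1 with no window or with midpoints, 5 with a window of 25 kb and 9 with a window of 50 kb. Over all protein-coding genes the share was 11.7% with no window, 25.9% with 25 kb, 35.6% with 50 kb and 11.2% with midpoints. Each of these shares was counted as changed, also the 25.9%, which is within 1.5 times the main share of 18.3%. Measured from its start site, Rnf32 lay 129 kb from a boundary. With the whole gene body required, 2 pairs of the Shh locus shared a domain, and by start site 1 boundary lay between Shh and Lmbr1, because Lmbr1 starts beyond it. Domain lengths of 875 and 725 kb did not change when boundaries under 100 kb apart were merged. No paired analysis was possible because the list pools the 6 libraries, and for the same reason leaving out a replicate was not possible. The depth behind each boundary is unknown, and a position is no finer than 25 kb.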

Other observations

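The neighbourhood beyond the Shh and Mnx1 domains varied in how boundaries met genes. The boundary from 27650001 to 27675000, which opens the domain of En2, lay inside Dpp6 (26817357 to 27727500), a long gene that encodes a partner of potassium channels, and had no protein-coding gene end within 10 kb. En2 itself, at 253 kb, and Insig1, a regulator of cholesterol synthesis, at 346 kb, lay deep in their domain. The domain also held Htr5a, Cnpy1 and Paxip1, the last at 65.1 kb from a boundary. Rbm33 stood at the edge next to Shh. Beyond Mnx1, Ube3c and Dnajb6, which encode a ubiquitin ligase and a chaperone, lay 219 and 289 kb from a boundary, and the cytokine gene Il6 lay 55.0 kb from one.

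The boundary from 30075001 to 30100000, which closes the domain of Nom1 and Mnx1, had 3 protein-coding genes with an end within 10 kb. The boundary next to Shh had 2. Tyms, which encodes thymidylate synthase, ended 1.36 kb before the boundary that closes the domain of Nom1 and Mnx1. The genes 3110082J24Rik and Garem2 began 3.58 and 5.2 kb after that boundary. The pseudogenes Gm4961 and Gm21019 lay inside the interval. The next domain, of 550 kb, held 11 protein-coding genes, or 2 per 100 kb, among them Hadha and Hadhb, which encode the subunits of the mitochondrial trifunctional protein. The others were Adgrf3, Selenoi, Drc1, the deafness gene Otof, Fam166c, Cib4 and Kcnk3. It was closed by a boundary with ends of Slc35f6 and Cenpa, the gene of the centromeric histone, inside it. Gene density was thus 0.343 per 100 kb in the Shh domain and 0.828 and 2 in the 2 domains that follow it. In the domain of En2, on the other side of Shh, it was 0.8. These values are a description with no test.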
